A study of Mus musculus with 12 samples.

Results

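The 10 genes described here make, bind, read and clear retinoic acid, and they were taken as a fixed list from the 23513 genes counted in nuclei of the embryonic mouse cortex. Aldh1a2 and Aldh1a3 encode synthesizing enzymes, Crabp2 encodes a binding protein, Rara, Rarb and Rarg encode the retinoic acid receptors (RARs), Rxra, Rxrb and Rxrg encode the retinoid X receptors (RXRs), and Cyp26b1 encodes a degrading enzyme. The genes were chosen by name for their place in the pathway, with earlier results of these data known. All 10 were present in the count tables. Their level in each of 25 clusters and 11 embryos, the share of nuclei in which they were detected, and the comparison of ethanol (EtOH) with saline embryos are given in turn.

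The embryos were C57BL/6J mice from dams given daily intraperitoneal injections of EtOH at 2.5 g/kg, as a 25% (v/v) solution in saline, or of saline alone. There were 6 injections, the first at embryonic day 8.5, and cortices were collected 1 day after the last, at an age that the labels give as embryonic day 14. Embryos are named by dam, with S for saline and E for EtOH. Batch 1 held 2 saline embryos of one litter, S1-1 and S1-2, beside EtOH littermates E1-1 and E1-2. Batch 2 held saline littermates S2-1, S2-2 and S2-4 beside 4 EtOH littermates named E2-1, E2-2, E2-3 and E2-4. This gave 5 saline and 6 EtOH libraries, 1 per embryo. With 2 dams per treatment and littermates taken as independent, a difference between treatments cannot be told apart from a difference between dams. A further saline embryo was not analysed here.

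Retinoic acid is a small lipophilic signal made from vitamin A by retinaldehyde dehydrogenases and removed by cytochromes of the Cyp26 family. It binds RARs, which sit on DNA together with an RXR partner and switch target genes when the ligand is present. In the embryonic forebrain, the meninges and the lateral ganglionic eminence are known sources of retinoic acid, and Rarb is known for its role in the striatum, the structure that the lateral ganglionic eminence forms.

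The files held 50550 nuclei, with 44017566 to 83061737 unique molecular identifiers (UMIs, counted RNA molecules) per saline embryo and 14078316 to 38034349 per EtOH embryo, so EtOH values rest on fewer counts throughout. The median UMIs per nucleus lay between 6325 and 9051 in saline embryos and between 4071.5 and 6911 in EtOH embryos. Cluster numbers and names are the authors'. Of the fixed marker lists, the striatal list, which holds Rarb itself, was highest in Cluster 11, with a sum of 17582 CPM (counts scaled to a total of 1000000). The Cajal-Retzius list was highest in Cluster 14 (11290 CPM) and the interneuron list in Cluster 23 (2186 CPM). The hem list was highest in Cluster 21 (5609 CPM), which carries the name NEC and which the paper's text classifies as cortical hem radial glia. S2-1 held more nuclei of Clusters 3 (14.5%) and 7 (15.7%) and S2-2 more of Clusters 2 (15.6%) and 21 (4.64%) than other saline embryos, and 314 barcodes, in 638 nuclei, occurred in more than 1 library. Each level below is the CPM of a gene after its counts were added up per embryo and cluster, for embryos with at least 10 nuclei there, given as the mean ± SD over embryos. Since the clusters were formed from the expression of all genes, levels across clusters are descriptions with no test.

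**Figure D1:**
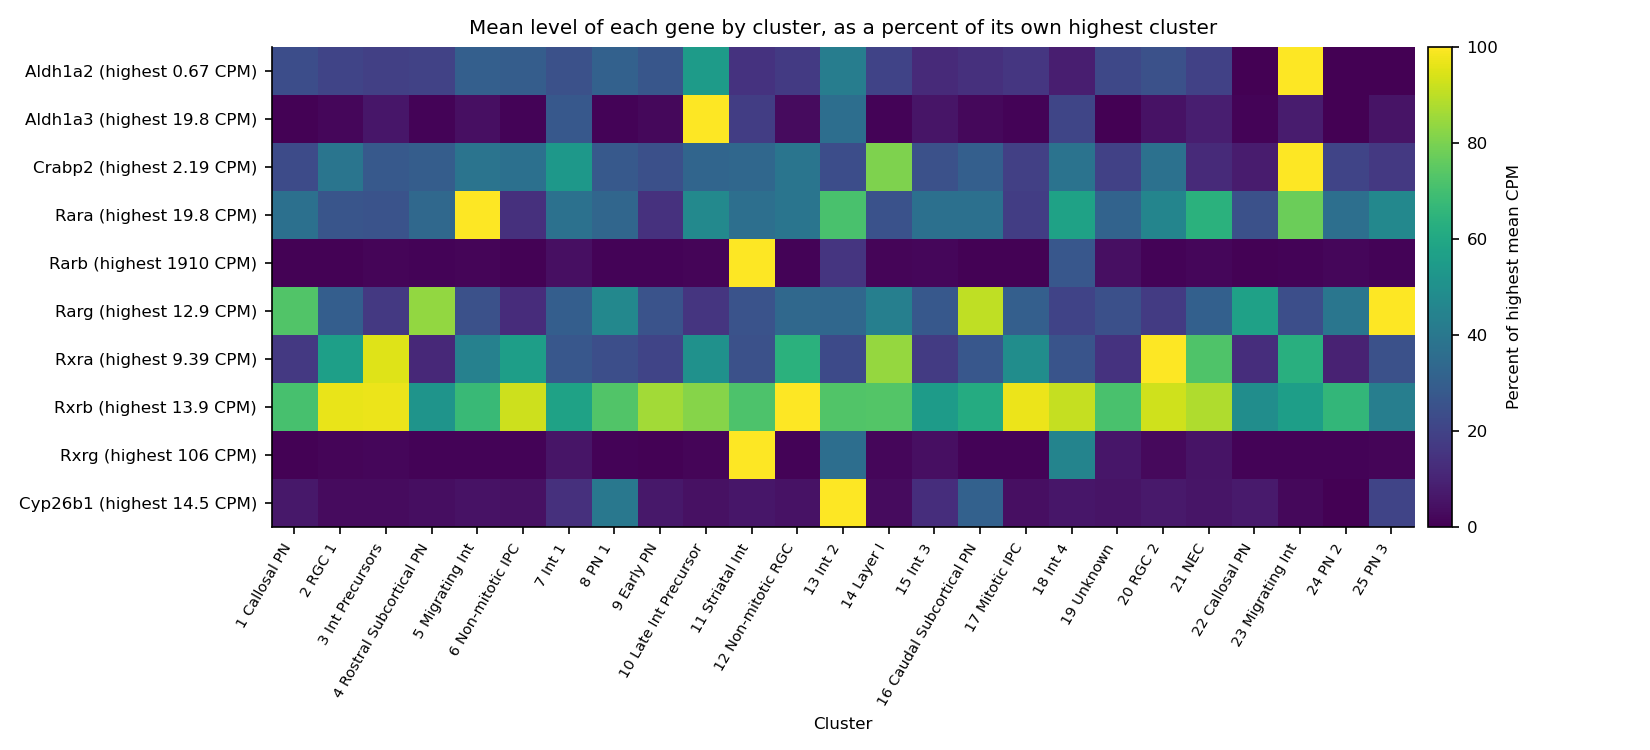
Heatmap of the 10 genes (rows) in the 25 clusters (columns, with their numbers), coloured by the mean CPM over embryos as a percent of that gene's own highest cluster. From dark (low) to yellow (high), Rarb and Rxrg are brightest in Cluster 11, with Clusters 18 and 13 next, Aldh1a3 in Cluster 10 and Cyp26b1 in Cluster 13, while Rxrb is the most even and is dark in no cluster.

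Of the synthesizing enzymes, Aldh1a3 was most abundant in late interneuron precursors and Aldh1a2 was barely found. Aldh1a3 (GRCm38, chr7:66390890-66427517, minus strand) reached 19.8 ± 11.8 CPM (SD, n = 11) in Cluster 10, the late interneuron precursors, which held 41.6% of its 896 UMIs, followed by Cluster 7 with 18.3% and Cluster 11 with 12.5%. It was higher there than in Cluster 13, the next cluster at 7.16 ± 7.49 CPM, in 11 of 11 embryos. The embryos spread widely in Cluster 10. Saline embryos S1-1, S1-2, S2-1, S2-2 and S2-4 had 34.9, 15.6, 23.2, 9.01 and 12.1 CPM of Aldh1a3, and the 6 EtOH embryos had a lowest value of 5.18, a median of 20.6 and a highest value of 43.8 CPM. The groups overlapped, with the lowest and the highest value both in EtOH embryos. After Clusters 10 and 13 came Clusters 7, 18 and 11 with 5.44 ± 5.32, 4.14 ± 5.64 and 3.61 ± 3.99 CPM of Aldh1a3, neighbours that did not differ beyond their spread. A single nucleus of Cluster 11 held 21 of the 112 Aldh1a3 UMIs of that cluster. In projection neuron clusters the mean Aldh1a3 level did not exceed 1.02 CPM.

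Aldh1a2 (GRCm38, chr9:71215789-71296243, plus strand), the enzyme of the meninges in later forebrain, had 89 UMIs in 85 of the 50550 nuclei. Its highest cluster mean, 0.670 ± 1.73 CPM (SD, n = 10) in Cluster 23, a group of migrating interneurons, rested on 2 UMIs, so no order of clusters can be read at this depth. By embryo, over all nuclei, S1-1, S1-2, S2-1, S2-2 and S2-4 had 28, 12, 9, 27 and 4 Aldh1a2 UMIs and EtOH embryos had between 0 and 3, out of fewer UMIs in all. The 0 of E1-1 allows up to 0.213 CPM at 3 counts. Aldh1a2 did not pass the filter over all nuclei, and with every gene with at least 1 count tested it was called as lower in EtOH embryos (log2 fold change -2.21, adjusted p = 0.0312, edgeR), where 2.99% of genes were called as lower. Saline embryo S2-2 had both the highest Aldh1a2 level, 0.613 CPM, and the highest sum of the 7 meningeal markers, 27.4 CPM. It also had the highest sum of the 2 choroid plexus markers, 77.2 CPM. S1-1, S1-2, S2-1 and S2-4 had meningeal sums of 8.82, 6.95, 5.35 and 6.88 CPM beside 0.337, 0.227, 0.151 and 0.0742 CPM of Aldh1a2. The EtOH embryos had meningeal sums of 3.00 to 8.03 CPM beside 0 to 0.105 CPM of Aldh1a2. E1-1, with the 8.03 CPM, was the embryo with 0 Aldh1a2 UMIs. Outside S2-2 the meningeal sums of the groups thus overlapped, while of the saline Aldh1a2 levels only that of S2-4 lay within the EtOH range. Clusters of meningeal cells were left out by the authors, and the part of RNA from such cells in the Aldh1a2 counts was not tested.

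Crabp2 (GRCm38, chr3:87948666-87953376, plus strand), which carries retinoic acid into the nucleus, had 344 UMIs. Its cluster means lay between 0.165 CPM in Cluster 22 and 2.19 ± 4.31 CPM (SD, n = 10, 6 UMIs) in Cluster 23, with Cluster 14, the Cajal-Retzius cells of Layer I, next at 1.76 ± 1.80 CPM from 21 UMIs. Cluster 23 exceeded Cluster 14 in 3 of 10 embryos, and its mean was 1.35 CPM without S2-1 and 1.21 CPM without S2-2, below that of Cluster 14 over all embryos. No cluster stood above the others by more than the spread between embryos.

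Among the RARs, Rarb marked a few clusters, while Rara and Rarg were spread more evenly. Rarb (GRCm38, chr14:16430839-16819156, minus strand) is itself a target of retinoic acid signalling, through a response element in its promoter, and lies opposite Top2b, whose reads can be told from those of Rarb only where counting uses strand. Among 32851 promoter windows of RefSeq on GRCm38.p6, each from 250 bases before to 50 after a start, 32 (0.0974%) held 2 half-sites in the same orientation spaced by 5 bases, where a half-site was AGGTCA on either strand, or its variant GGGTCA, or the motif AGTTCA, or its variant GGTTCA. Windows were found for 8 of the 10 genes, 15 in all, and of these the Rarb window was the only one with such a pair, with its last base 36 bases before the start. Single half-sites were common, in 14358 windows (43.7%) and 7 of the 15. Pairs spaced by 1 base (0.222% of windows) or by 2 bases (0.268%) were in 0 of the 15. The Rarb window is shown because of this pair and the 2 windows of Rxrg because Rxrg followed Rarb across the clusters. Capitals mark the spaced pair with its spacer in Rarb and single half-sites in Rxrg, and a match is a description of these letters only.
Rarb, chr14:16575427-16575726, minus strand: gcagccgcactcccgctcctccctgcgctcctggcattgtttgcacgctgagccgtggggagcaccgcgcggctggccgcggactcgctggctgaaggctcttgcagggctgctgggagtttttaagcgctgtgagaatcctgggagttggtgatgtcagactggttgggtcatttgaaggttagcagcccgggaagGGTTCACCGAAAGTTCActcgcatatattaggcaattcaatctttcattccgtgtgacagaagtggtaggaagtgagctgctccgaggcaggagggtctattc
Rxrg, chr1:167598112-167598411, plus strand: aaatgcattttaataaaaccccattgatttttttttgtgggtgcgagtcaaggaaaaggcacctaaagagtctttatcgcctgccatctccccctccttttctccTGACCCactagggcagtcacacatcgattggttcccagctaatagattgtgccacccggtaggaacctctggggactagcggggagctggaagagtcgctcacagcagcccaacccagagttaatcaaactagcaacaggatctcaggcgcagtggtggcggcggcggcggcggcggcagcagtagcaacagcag
Rxrg, chr1:167618015-167618314, plus strand: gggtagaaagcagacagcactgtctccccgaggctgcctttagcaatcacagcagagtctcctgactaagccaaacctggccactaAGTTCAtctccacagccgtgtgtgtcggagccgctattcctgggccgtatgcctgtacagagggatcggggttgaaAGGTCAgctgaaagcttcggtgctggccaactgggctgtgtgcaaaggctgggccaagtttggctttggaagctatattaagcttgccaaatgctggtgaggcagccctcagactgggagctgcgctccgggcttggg

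Rarb was highest in Cluster 11, the striatal interneurons that the authors named partly by this gene, and that cluster held 70.2% of its 60894 UMIs. The saline embryos S1-1, S1-2, S2-1, S2-2 and S2-4 had 2080, 1891, 1584, 1967 and 1655 CPM of Rarb in Cluster 11. The EtOH embryos had a lowest value of 1835, a median of 1918 and a highest value of 2197 CPM. The lowest 2 values were those of S2-1 and S2-4, and the groups overlapped. Cluster 18 followed, at a level 3.68 times lower, with 519 ± 179 CPM of Rarb and a range from 190 to 785 CPM, and Cluster 11 was above it in 11 of 11 embryos. Cluster 13 had 294 ± 121 CPM, and both clusters are interneuron clusters by the authors' names. Clusters 19 and 7 had 77.9 ± 24.6 and 76.6 ± 20.5 CPM of Rarb and did not differ beyond their spread. In projection neuron clusters Rarb lay between 9.19 and 32.8 CPM, in radial glial clusters between 14.5 and 35.7 CPM and in intermediate progenitor clusters between 13.5 and 14.8 CPM, with the lowest mean over both groups in Cluster 1, the callosal projection neurons.

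Rara (GRCm38, chr11:98927818-98974942, plus strand), the RAR found in most tissues, was highest in Cluster 5, a group of migrating interneurons, at 19.8 ± 3.14 CPM (SD, n = 11). There S1-1, S1-2, S2-1, S2-2 and S2-4 had 17.9, 17.8, 16.8, 26.9 and 16.8 CPM of Rara, and EtOH embryos had between 17.99 and 23.3 CPM with a median of 19.9. Among the saline embryos, all but S2-2 were close together. Cluster 23, the other migrating interneuron cluster, had 15.4 ± 12.4 CPM from 38 UMIs and was below Cluster 5 in 8 of 10 embryos. Clusters 13 and 21 came next with 14.1 ± 2.81 and 12.6 ± 5.48 CPM of Rara. Cluster 21 had 14.13 to 19.6 CPM in saline embryos, from 88 UMIs, and 4.33 to 14.01 CPM in EtOH embryos, from 10 UMIs. The groups were separated by the gap between S2-4 and E1-1, and Rara had too few counts there for the filter. Of the genes with a mean count of at least 10 in this cluster, where Rara had fewer, 1.42% were lower without overlap. With every gene with at least 1 count tested, the log2 fold change of Rara was -1.14 ± 0.52 (adjusted p = 0.395, edgeR). The lowest mean, 2.74 CPM, was in Cluster 6, the non-mitotic intermediate progenitors. Interneuron clusters ranged from 7.28 to 19.8 CPM and projection neuron clusters from 2.79 to 9.25 CPM of Rara.

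Rarg (GRCm38, chr15:102234938-102257517, minus strand) had its highest cluster means in projection neurons. Cluster 25 had 12.9 ± 6.48 CPM from 30 UMIs in the 7 embryos with enough nuclei (24.3 CPM with nuclei thinned to 2000 UMIs), Cluster 16 had 11.6 ± 4.52, Cluster 4 had 10.8 ± 2.00 and Cluster 1 had 9.39 ± 2.68 CPM (n = 11 for the last 3). These neighbours did not differ beyond their spread, and Cluster 25 exceeded Cluster 16 in 4 of 7 embryos. Projection neuron clusters ranged from 3.28 to 12.9 CPM of Rarg, interneuron clusters from 1.98 to 4.32, radial glial clusters from 2.13 to 4.37 and intermediate progenitor clusters from 1.63 to 3.90 CPM. In Cluster 25, saline embryos S1-1, S1-2, S2-1, S2-2 and S2-4 had 15.7, 16.6, 16.1, 20.1 and 14.1 CPM from 6, 5, 3, 8 and 6 UMIs, and the 2 EtOH embryos E2-2 and E2-3 had 3.56 and 3.96 CPM from 1 UMI each. The groups did not overlap there, but 6.62% of the genes with a mean count of at least 10 in this small cluster, where Rarg had fewer, were lower without overlap, and with every gene with at least 1 count tested by edgeR's quasi-likelihood test the adjusted p for Rarg was 0.818.

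**Figure D2:**
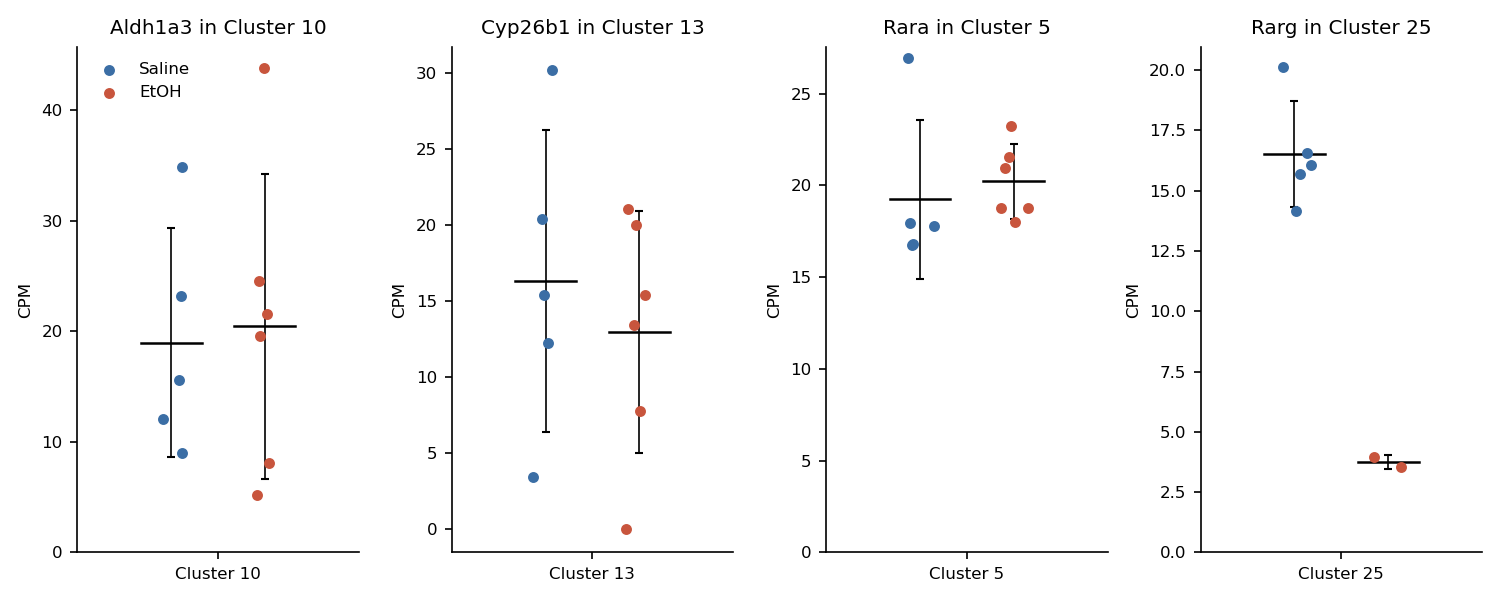
CPM of Aldh1a3 in Cluster 10, Cyp26b1 in Cluster 13, Rara in Cluster 5 and Rarg in Cluster 25 by treatment, 1 point per embryo, with bars for the group mean ± SD. Saline and EtOH points overlap in the first 3 panels, and in Cluster 25 the 2 EtOH embryos, with 1 Rarg UMI each, lie below the 5 saline embryos.

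Of the RXRs, Rxrg followed the clusters of Rarb, and Rxra and Rxrb were higher in progenitors than in projection neurons, with Rxrb the most even. Rxrg (GRCm38, chr1:167598384-167639623, plus strand), the RXR known from the striatum, was highest in Cluster 11 at 106 ± 33.3 CPM (SD, n = 11), and this cluster held 59.4% of its 3704 UMIs. Clusters 18 and 13 followed with 48.0 ± 17.9 and 38.4 ± 10.2 CPM of Rxrg, which also came next for Rarb, in that order. Cluster 11 was above Cluster 18 in 10 of 11 embryos, the exception being S2-2 with 56.7 against 63.3 CPM. Clusters 19 and 7 had 6.26 ± 5.84 and 5.97 ± 3.40 CPM, and the lowest mean, 0.597 CPM, was again in Cluster 1.

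Rxra (GRCm38, chr2:27676440-27762957, plus strand), an RXR found in many tissues, ranged from 5.31 to 9.39 CPM in radial glial clusters, 4.60 to 5.27 CPM in intermediate progenitor clusters and 0.907 to 2.55 CPM in projection neuron clusters. Its highest means were 9.39 ± 5.37 CPM in Cluster 20 (n = 9), 8.95 ± 3.97 CPM in Cluster 3 and 7.92 ± 3.63 CPM in Cluster 14, which did not differ beyond their spread. Rxrb (GRCm38, chr17:34031812-34038399, plus strand), which is found in most cells, lay between 5.94 CPM in Cluster 25 and 13.9 ± 5.78 CPM in Cluster 12, a ratio of 1.38 between its highest cluster and its median cluster. Cluster 12 exceeded Cluster 3, the next one at 13.5 ± 3.38 CPM of Rxrb, in 6 of 11 embryos.

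**Figure D3:**
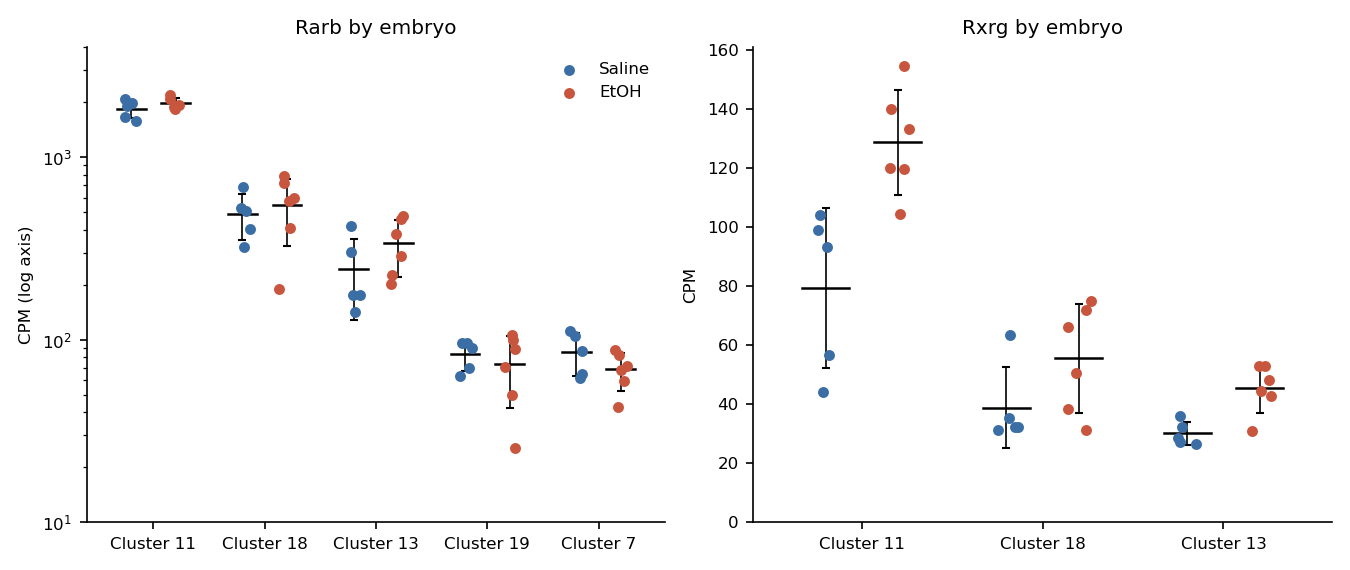
CPM of Rarb in Clusters 11, 18, 13, 19 and 7 (log axis) and of Rxrg in Clusters 11, 18 and 13 by embryo, with saline and EtOH embryos in different colours and bars for the group mean ± SD. Rarb falls from 1910 CPM in Cluster 11 to about 77 CPM in Clusters 19 and 7, and in Cluster 11 every EtOH embryo has more Rxrg than every saline embryo.

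Likeness of pattern was measured by Pearson's r of log2(CPM + 1) over the 25 cluster means among 11621 genes that reached 10 CPM in at least 1 cluster, which describes clusters that share embryos and libraries. Rxrg was the gene most like Rarb and Rarb the gene most like Rxrg, with r = 0.97. The next for Rarb were Gm14133 (r = 0.84) and Stra6l (r = 0.81), and for Rxrg Gm14133 (r = 0.84) and Lncbate1 (r = 0.82). Aldh1a3 was most like B020031H02Rik (r = 0.91), Gm45680 (r = 0.90) and A230072I06Rik (r = 0.86), each also highest in Cluster 10. Rarg was most like Prkce, Sema4d and Adam15 (r = 0.84 for each), and Rxrb most like Tmem234, Zc3h14 and Chd1 (r = 0.92 for each). Rara was most like Car2, Ksr1 (r = 0.76 for each) and Ncoa3 (r = 0.75). Cyp26b1 was most like Chrm1, Skap2 (r = 0.69 for each) and Adora2a (r = 0.67).

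The likeness of Rarb and Rxrg was also seen between nuclei of the same cluster. Nuclei were thinned to 2000 UMIs each to set depth equal. In Cluster 11, Rxrg had a UMI in 308 of the 1587 nuclei with a Rarb UMI (19.4%) and in 19 of the 608 nuclei without one (3.13%). In Cluster 13 the shares were 16.2% and 3.37% and in Cluster 18 15.5% and 3.20%. The share was higher in nuclei with Rarb in 11 of 11 embryos in Clusters 11 and 13 and in 9 of 10 in Cluster 18. The nuclei of a cluster can differ in subtype, and its part in these shares was not tested. The enzymes had too few nuclei to read a link with Rarb in either direction. In Cluster 13, Aldh1a3 had a UMI in 4 of 290 nuclei with Rarb (1.38%) and 8 of 1008 without (0.794%), and Cyp26b1 in 5 (1.72%) and 28 (2.78%). In Cluster 10, Rarb had a UMI in 7 of 81 nuclei with Aldh1a3 (8.64%) and 97 of 2277 without (4.26%), and the share was higher with Aldh1a3 in 1 of the 3 embryos with at least 10 nuclei of each kind.

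Cyp26b1 (GRCm38, chr6:84571414-84593908, minus strand), which oxidizes retinoic acid and so ends the signal, was highest in Cluster 13 at 14.5 ± 8.61 CPM (SD, n = 11) among 730 UMIs in all. S1-1, S1-2, S2-1, S2-2 and S2-4 had 12.3, 3.42, 15.4, 20.4 and 30.2 CPM of Cyp26b1 there, and EtOH embryos had a median of 14.4 and a highest value of 21.1 CPM. E1-1 had 0 UMIs, which allows up to 14.4 CPM at 3 counts. The groups overlapped. Cluster 8, a projection neuron cluster, came next with 5.78 ± 3.41 CPM, below Cluster 13 in 9 of 11 embryos, followed by Cluster 16 of caudal subcortical projection neurons with 4.49 ± 3.22 CPM of Cyp26b1. Cluster 13 was thus among the first 3 clusters for Rara, Rarb, Rxrg, Aldh1a3 and Cyp26b1.

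The shares of nuclei gave the same highest clusters as the CPM for Rarb, Rxrg, Aldh1a3, Cyp26b1 and Rarg, and other clusters for Rara, Rxra, Rxrb, Aldh1a2 and Crabp2. At 2000 UMIs per nucleus, Rarb had a UMI in 73.0 ± 5.96% of Cluster 11 nuclei (82.7% unthinned, median depth 8528 UMIs), 29.3 ± 6.05% of Cluster 18 and 22.7 ± 3.87% of Cluster 13. Projection neuron clusters lay between 0.952% and 5.14% for Rarb, with 1.77 ± 1.31% in Cluster 1 (6.34% unthinned, median depth 6607.5 UMIs). Rxrg had a UMI in 16.2 ± 6.89% of Cluster 11 nuclei against 0.117 ± 0.176% in Cluster 1. Aldh1a3 had one in 3.50 ± 2.45% of Cluster 10 nuclei and in 0.0651 ± 0.155% of Cluster 1 nuclei, and Cyp26b1 in 2.64 ± 1.82% of Cluster 13 nuclei and 0.132 ± 0.154% of Cluster 1 nuclei. Rara reached 3.54 ± 0.793% in Cluster 5 from 136 nuclei, below the 5.29 ± 4.76% of Cluster 23 and the 4.37 ± 4.15% of Cluster 25, which rested on 20 and 4 nuclei. Rarg reached 4.86 ± 5.77% in Cluster 25, from 5 nuclei, and at 4000 UMIs its highest cluster was Cluster 4, with 4.30 ± 1.00%. Rxrb reached 3.30 ± 2.60% in Cluster 20, with Cluster 14 next at 3.13 ± 1.75%, neighbours that lay within their spread, and Rxra reached 2.07% in Cluster 3.

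To ask whether prenatal EtOH changed these genes, saline and EtOH embryos were compared in each cluster by edgeR's quasi-likelihood test with Benjamini-Hochberg adjustment over all genes of the cluster, and a gene was called at an adjusted p under 0.05 with a fold change below 0.8 or above the inverse of 0.8. Of the 10 genes, 8 passed the filter on low counts in at least 1 cluster, and these gave 63 pairs of a gene and a cluster. Aldh1a2 and Crabp2 passed in none. One pair, Rarb in Cluster 1, was called as lower in EtOH and none as higher (1 of 63), where 0.792% of all pairs of a gene and a cluster were called. At an unadjusted p under 0.05 there were 9 pairs. The log2 fold change was positive in 31 pairs and negative in 32 with a median of -0.02, against medians over all genes between -0.01 and 0.01 by cluster.

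**Figure D4:**
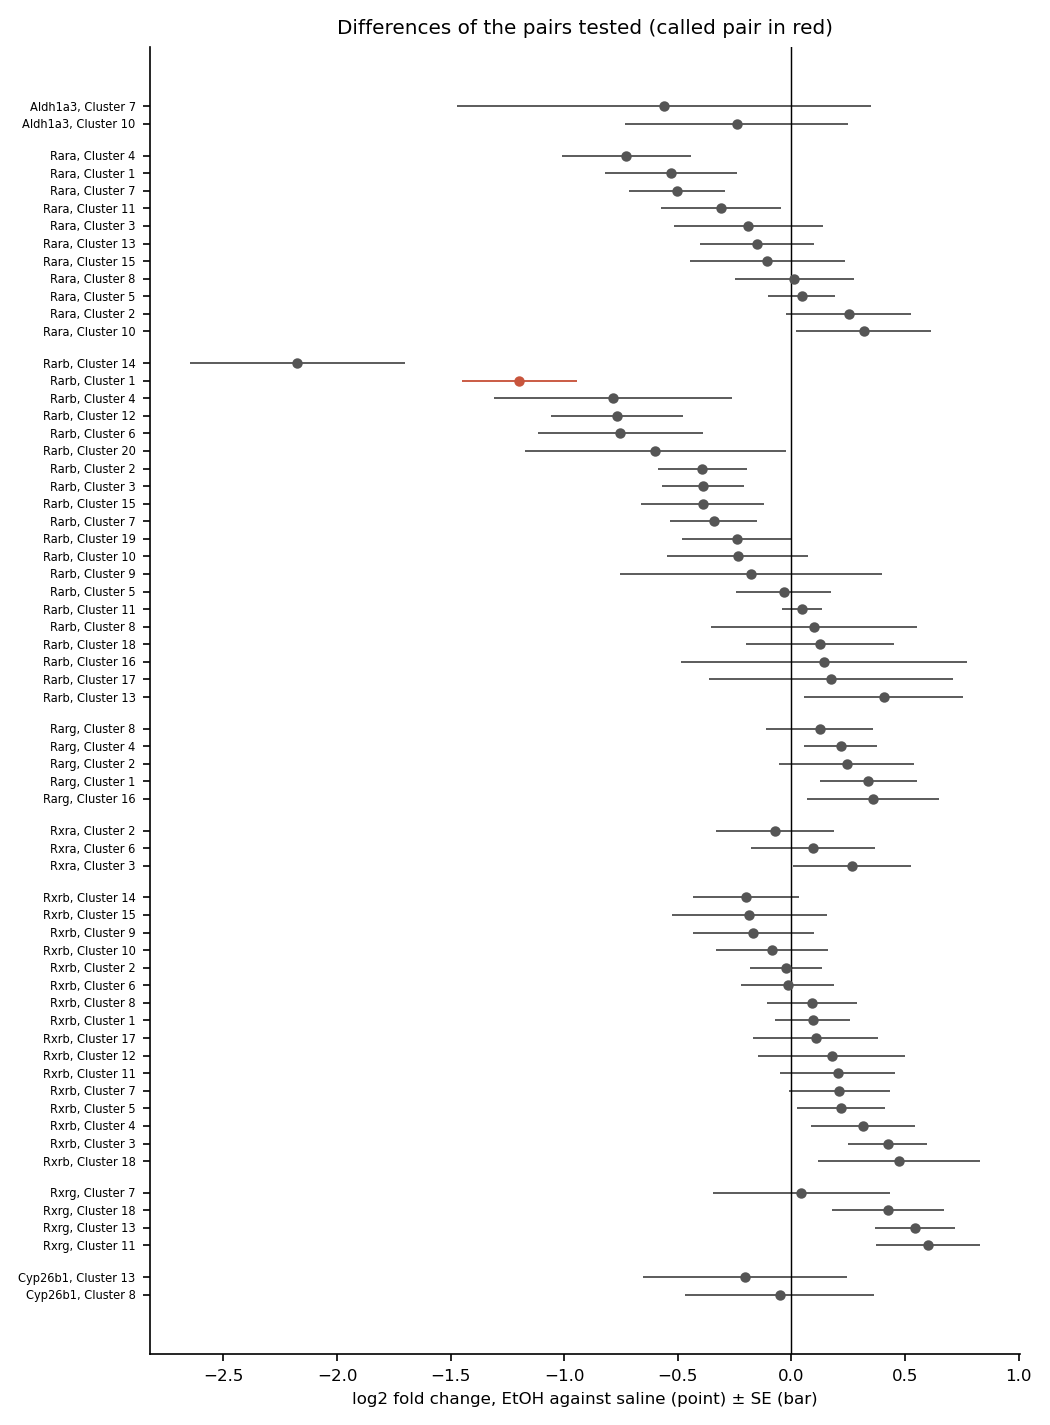
Log2 fold change of EtOH against saline ± SE for the 63 tested pairs of a gene and a cluster (edgeR), with the called pair in red and 0 marked by a line. Most intervals of 1 SE lie across or close to 0, Rarb in Cluster 14 and Cluster 1 are the lowest points, and all 4 points of Rxrg are above 0.

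Rarb was called as lower in EtOH embryos in Cluster 1, the callosal projection neurons, where it was among the least abundant. In saline embryos alone, its mean of 13.06 CPM there lay beside 13.04 CPM in Cluster 22, 13.7 in Cluster 17 and 13.9 in Cluster 16 and above 5.72 CPM in Cluster 25. S1-1, S1-2, S2-1, S2-2 and S2-4 had 17.9, 11.9, 15, 13.8 and 6.68 CPM of Rarb in Cluster 1, from 29 to 119 UMIs. E1-1, E1-2, E2-1, E2-2, E2-3 and E2-4 had 4.57, 5.90, 4.97, 6.64, 7.96 and 5.78 CPM, from 8 to 18 UMIs. All saline embryos but S2-4 were above all EtOH embryos. The median UMIs per Cluster 1 nucleus followed the same split, with 6137 in S2-4, 7766 to 8665 in the other saline embryos and 3987.5 to 6463 in EtOH embryos. The part of depth in the Rarb level was not tested. The log2 fold change was -1.20 ± 0.25 (SE, adjusted p = 0.0256, edgeR), in a cluster where 1.69% of genes were called as lower. The call was lost without S1-1, S2-1, S2-2, E2-1, E2-2 or E2-4, with a largest adjusted p of 0.0798 without S1-1, and the smallest was 2.39e-05 without S2-4. Over the clusters, DESeq2 called 2 pairs of a member and a cluster (2.61% of all pairs), the fit with counts summed per dam 2 (0.721%), the fit with batch as block 1 (0.419%), the fit of every gene with at least 1 count 4 (2.07%) and the fit of nuclei thinned to 2000 UMIs 0 (0.6%), and Rarb in Cluster 1 was among the calls in all of these but the last, where it was not tested. A Rarb UMI was found in 3.73% to 14.3% of Cluster 1 nuclei of saline embryos and in 1.49% to 5.26% of EtOH embryos. At 2000 UMIs per nucleus the means were 2.71% and 0.994%, given with no test since the pair was chosen after its values were seen.

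Other genes moved with Rarb in Cluster 1. Ebf1, a transcription factor of striatal neurons, had a log2 fold change of -1.41 (adjusted p = 0.0493, edgeR), with 53.7 to 162 CPM in saline and 17.4 to 62.0 CPM in EtOH embryos. Gad1 and Gad2, which make the transmitter GABA of interneurons, had -0.94 and -1.01 (adjusted p = 0.107 and 0.147), while Foxp1 and Isl1, also of striatal neurons, had -0.06 and -0.13. The 6 striatal markers, which hold Rarb, Ebf1 and Gad2 themselves, summed to 455 to 634 CPM in saline and 381 to 478 CPM in EtOH embryos. The 6 interneuron markers, with Gad1 and Gad2 among them, summed to 39.8 to 120 and 26.7 to 53.8 CPM, and none of either list was at 0. These sums are thus not separate from the changes of those genes. The projection neuron factor Neurod2 was lower as well, at -0.69 (adjusted p = 0.0433). Per 100 Ebf1 UMIs of Cluster 1 there were 9.25 to 14.1 Rarb UMIs in saline embryos (median 12.4) and 8.79 to 15.5 in the EtOH embryos other than E2-3, which had 45.8, and in Cluster 11 there were 15.3 ± 2.54 and 15.6 ± 1.93. The part of RNA or nuclei from Cluster 11 in the Rarb counts of Cluster 1 was not tested further. Cluster 11 itself made up 4.26 ± 0.447% of saline and 4.42 ± 1.01% of EtOH nuclei, with p = 0.758 in a two-sided exact permutation test.

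In Cluster 14, the Cajal-Retzius cells of Layer I, the Rarb difference was larger but was not called by edgeR, while it was called by DESeq2 (log2 fold change -2.24, adjusted p = 0.000584) and by edgeR with counts summed per dam (-2.23, adjusted p = 0.0223). The saline embryos had 23.9, 103, 33.2, 53.5 and 28.4 CPM of Rarb, in the order S1-1, S1-2, S2-1, S2-2 and S2-4, while the EtOH embryos had a lowest value of 5.58, a median of 10.6 and a highest value of 15.4 CPM. These values rest on 37 to 143 Rarb UMIs per saline embryo and only 2 to 14 per EtOH embryo, with 2 in E1-1, the lowest. The groups did not overlap, as was the case for 0.554% of genes in this cluster in this direction. The log2 fold change was -2.18 ± 0.47 with an adjusted p of 0.0849 in edgeR. It was called by edgeR without S1-2 (adjusted p = 0.0461, log2 fold change -1.72) or without S2-4 (0.0219). The shares of all genes called in these 2 fits are not reported here. A single nucleus of S1-2, with 41626 UMIs, 626 of Reln and 324 of Ebf1, held 108 of that embryo's 143 Rarb UMIs. Without that nucleus S1-2 had 25.9 CPM, which was still above every EtOH embryo. Here Ebf1 had a log2 fold change of -0.11, and Rarb per 100 Ebf1 UMIs was 4.79 ± 2.26 in saline and 1.15 ± 0.611 in EtOH embryos. The striatal and interneuron markers, all above 0, summed to 874 to 1665 and 97.3 to 146 CPM in saline and 836 to 1481 and 15.02 to 179 CPM in EtOH embryos, and their part was not tested. Of the striatal sum, which holds Rarb too, Ebf1 alone gave 610 to 1337 CPM in saline and 690 to 1336 CPM in EtOH embryos. In Cluster 1 its level was 17.4 to 162 CPM over both groups.

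In the clusters where Rarb was most abundant, it did not pass the test. The log2 fold change was 0.05 ± 0.09 in Cluster 11 (adjusted p = 0.825, edgeR), 0.12 ± 0.33 in Cluster 18 and 0.41 ± 0.35 in Cluster 13. A fold change of 0.8 and its inverse both lie outside 2 SE in Cluster 11, and both lie within it in Cluster 18. In Cluster 13 the inverse lies within 2 SE and 0.8 lies outside. Over the 20 clusters where Rarb was tested, 14 changes were negative, among them -0.77 ± 0.29 in Cluster 12 (adjusted p = 0.160, or 0.0306 without S2-4, edgeR), -0.79 ± 0.52 in Cluster 4 and -0.75 ± 0.36 in Cluster 6. The share of all genes called without S2-4 is not reported here. The changes in Clusters 1, 14 and 11 are set side by side with no test of their difference, since these clusters were picked by their Rarb values.

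**Figure D5:**
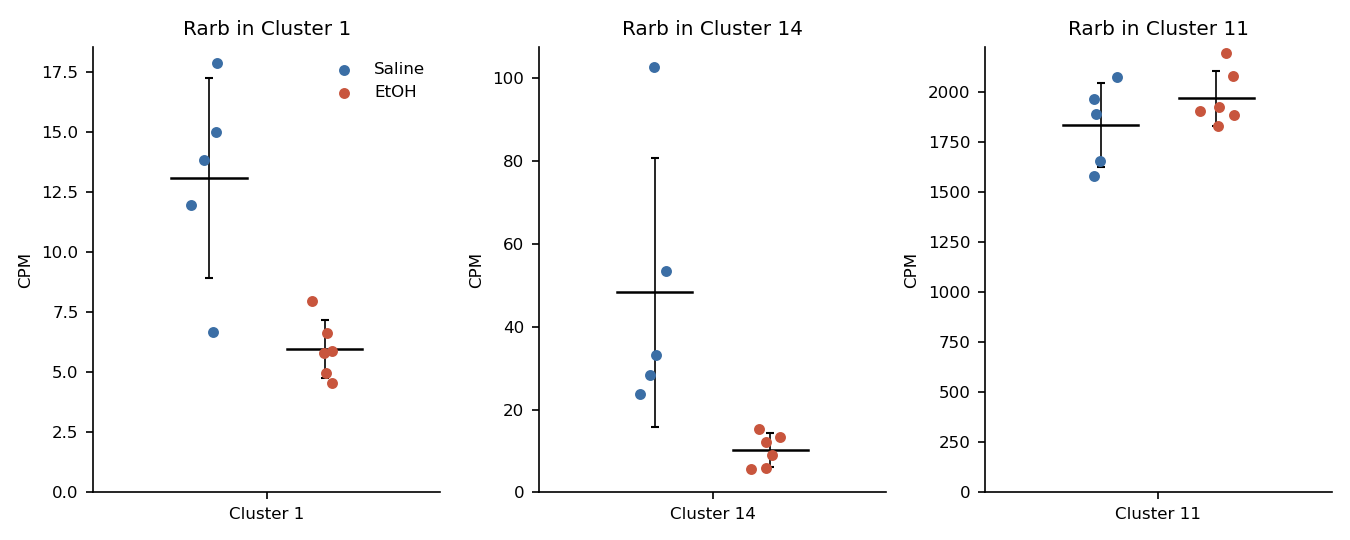
CPM of Rarb by treatment in Cluster 1, Cluster 14 and Cluster 11, 1 point per embryo, with bars for the group mean ± SD. EtOH embryos lie at 4.57 to 7.96 CPM in Cluster 1 and 5.58 to 15.4 CPM in Cluster 14, below nearly all saline embryos, while in Cluster 11 the groups overlap at 1584 to 2197 CPM.

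Rxrg had a positive log2 fold change in all 4 clusters where it was tested, with 0 calls among them. In Cluster 11, saline embryos had 104.2, 93.2, 44.2, 56.7 and 99.0 CPM of Rxrg, in the order S1-1, S1-2, S2-1, S2-2 and S2-4, and EtOH embryos a lowest value of 104.4, a median of 127 and a highest value of 155 CPM. The groups were separated only by the gap between S1-1 and E2-2, and 0.926% of genes in this cluster were higher without overlap. The log2 fold change was 0.60 ± 0.23 (adjusted p = 0.192, edgeR). In Cluster 13 it was 0.54 ± 0.17 (adjusted p = 0.125), with 26.5 to 35.9 CPM in saline and 30.8 to 53.0 CPM in EtOH embryos, in Cluster 18 it was 0.43 ± 0.25 (adjusted p = 0.506), and in Cluster 7 it was 0.04 ± 0.39. Beside Rxrg in Cluster 11, the sum of the 4 microglial markers was 32.9 to 85.1 CPM in saline and 75.4 to 115 CPM in EtOH embryos. Nearly all of it was P2ry12, at 32.4 to 84.1 and 74.6 to 115 CPM, and none of the 4 was at 0 over all embryos. The part of other cells in the Rxrg level was not tested.

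With the counts of all nuclei summed per embryo, 9 of the 10 genes were tested and Rxrg was called as higher in EtOH embryos. S1-1, S1-2, S2-1, S2-2 and S2-4 had 8.56, 7.70, 6.13, 5.34 and 8.23 CPM of Rxrg, and E1-1, E1-2, E2-1, E2-2, E2-3 and E2-4 had 9.52, 10.5, 13.1, 9.39, 10.1 and 9.78 CPM. Every EtOH embryo was above every saline embryo. The log2 fold change was 0.45 ± 0.15 (fold 1.37, adjusted p = 0.0460, edgeR), where 8.55% of genes were called as higher and 1.95% were higher without overlap. The call was kept without S1-1 or S2-4 and lost without any other embryo, with adjusted p between 0.0340 and 0.106, and it was lost with counts summed per dam (0.233, where 1.71% of genes were called) and with nuclei thinned to 2000 UMIs (0.137, where 7.23% were). Clusters 11, 13 and 18, which hold most Rxrg UMIs, made up 7.35% to 9.98% of saline nuclei and 6.89% to 12.5% of EtOH nuclei, highest in E2-1, and in sums over all nuclei more such nuclei and more RNA per nucleus cannot be told apart. Rarb, with the same 3 leading clusters, had a log2 fold change of 0.01 ± 0.17 over all nuclei, Rarg 0.30 ± 0.13 (adjusted p = 0.103, edgeR), Crabp2 -0.57 ± 0.27 (adjusted p = 0.135, and called at -0.75 without S2-4, with 0.0110) and Rara -0.22 ± 0.11 (adjusted p = 0.157). Leaving out S2-4 also gained calls in clusters and in major types, and the share of all genes called without it is not reported here.

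Of the other receptors, none was called in a cluster with all embryos. Rara had a negative change in 7 of 11 clusters tested, with the largest in Cluster 4, the rostral subcortical projection neurons, at -0.73 ± 0.28 (adjusted p = 0.152, edgeR). There saline embryos had 5.07 to 13.1 CPM and EtOH embryos 3.01 to 6.49 CPM of Rara. It was called without S2-4 (-0.87, adjusted p = 0.0310, edgeR), a fit for which the share of all genes called is not reported here. Rarg was positive in all 5 clusters tested, all with adjusted p of at least 0.348. Rxrb in Cluster 3, the interneuron precursors among radial glia, had 8.99 to 13.4 CPM in saline and 13.7 to 20.6 CPM in EtOH embryos without overlap (log2 fold change 0.42 ± 0.17, adjusted p = 0.155), where 1.42% of genes were higher without overlap. Of the 66 pairs of a member and a cluster with a mean count of at least 10, 3 did not overlap (Rxrb in Cluster 3, Rxrg in Cluster 11 and Rarb in Cluster 14), against 2.05% of all such pairs. Of the enzymes, Aldh1a3 had -0.24 ± 0.49 in Cluster 10 and -0.56 ± 0.91 in Cluster 7, and Cyp26b1 -0.20 ± 0.45 in Cluster 13, so that a fold change of 0.8 or its inverse lies within 2 SE of each. With every gene with at least 1 count tested, Aldh1a3 was called as lower in Cluster 11 (-1.87 ± 0.45, adjusted p = 0.00300, edgeR), with 0.610 to 11.6 CPM in saline embryos and 0 to 5.40 CPM in EtOH embryos, from 98 and 14 UMIs.

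Clusters were also joined into the 4 major types, radial glial cells, intermediate progenitors, projection neurons and interneurons. Of 24 pairs of a gene and a type, 0 were called by edgeR, with 3 at an unadjusted p under 0.05, where 4.32% of all pairs were called. DESeq2 also called 0. The 3 were Rara in projection neurons (-0.49 ± 0.19, adjusted p = 0.0884), Rarg in projection neurons (0.28 ± 0.11, adjusted p = 0.0971) and Rxrg in interneurons (0.32 ± 0.13, adjusted p = 0.131). In projection neurons, saline embryos had 5.45 to 11.2 and EtOH embryos 3.67 to 6.42 CPM of Rara, and saline embryos had 6.57 to 8.70 and EtOH embryos 7.65 to 10.6 CPM of Rarg, so both genes overlapped between groups.

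The share of nuclei with a UMI was compared in the highest cluster of each gene, thinned to 2000 UMIs, by a two-sided exact permutation test with adjustment over the 10 genes, and 0 were called, with 1 at an unadjusted p under 0.05. The test says little for Aldh1a2 and Crabp2, with no UMI in the thinned nuclei of Cluster 23, and for Rarg in Cluster 25, where 5 against 2 embryos cannot give an exact permutation p below 0.0476. Rarb was found in 69.2 ± 5.81% of Cluster 11 nuclei in saline and 76.1 ± 4.32% in EtOH embryos (exact permutation p = 0.0476, adjusted p = 0.271), and Rxrg in 12.1% and 19.6% (exact permutation p = 0.0541, adjusted p = 0.271). Without thinning the Rarb shares were 81.7% and 83.5%. For a difference in treatment effect between batches, 0 of 63 pairs were called by edgeR (7 at an unadjusted p under 0.05, where 0.0127% of all pairs were called). Each batch held 1 litter per treatment, with littermates taken as independent. Such a difference therefore cannot be told apart from differences between litters. With every gene with at least 1 count tested, 4 of 235 pairs were called, where 0.338% of all pairs were. These were Rarb in Clusters 11 and 15, with a log2 fold change 0.48 and 2.09 higher in batch 2 than in batch 1, and in Clusters 8 and 16, with differences of -1.80 and -2.51.

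The other genes of the pathway, 18 in number, were compared in the same way. Rdh10, which makes retinaldehyde, was highest in Cluster 21 (30.1 ± 6.4 CPM), and Stra6, a retinol transporter, in Clusters 21 and 11 (5.98 ± 4.3 and 5.23 ± 1.8 CPM). Crabp1 was highest in Cluster 11 (4.80 ± 3.5 CPM), Aldh1a1 in Cluster 2 (2.47 ± 1.7 CPM), and Dhrs3, which turns retinaldehyde back to retinol, in Cluster 21 (9.23 ± 6.3 CPM). Cyp26c1 did not exceed 0.446 CPM in any cluster. Between treatments, 12 of the 18 were tested in clusters, and of 218 pairs 0 were called by edgeR (20 at an unadjusted p under 0.05), where 0.792% of all pairs were called. Of these, 159 were negative, and the median log2 fold change was -0.08, against medians over all genes between -0.01 and 0.01 by cluster. In the 4 major types 1 of 47 pairs was called, Nrip1, a ligand-dependent corepressor, in radial glial cells (-0.34, adjusted p = 0.0441, where 4.32% of all pairs were called), and over all nuclei 0 of 14 were called, with 6 at an unadjusted p under 0.05 and 10 negative, where 8.55% of genes were called as higher and 3.55% as lower.

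Of 10 genes known to respond to retinoic acid, a list that shares Nrip1 and Dhrs3 with the last, 5 were tested in clusters. Of 79 pairs 1 was called, Meis1, a homeobox factor, lower in Cluster 1 (-0.77 ± 0.18, adjusted p = 0.0387, edgeR), where 1.69% of all genes were called as lower, against 0.792% of all pairs called, and 58 were negative with a median of -0.15. Over all nuclei 1 of 6 was called, Zfp503, a zinc finger factor of the striatum, lower in EtOH embryos (-0.60 ± 0.17, adjusted p = 0.0308), where 3.55% of genes were called as lower. Its highest cluster was also Cluster 11, at 24 ± 8.3 CPM.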

How the data were processed

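Nuclei of 11 embryonic cortices were profiled by single-nucleus RNA sequencing. Per the paper, the authors aligned and counted reads with Cell Ranger (mm10), filtered nuclei and genes, and removed non-neuronal clusters. The data used here were raw UMI counts in 1 table per embryo and cluster (275 tables). The paper gives default and recommended parameters for Cell Ranger and names no strand setting, and doublets were not called here. Counts were summed per embryo and cluster, with at least 10 nuclei (9 of 275 sums fell below), and fitted with edgeR 4.0.16 in R 4.3.3 (glmQLFit robust, TMM, filterByExpr), with DESeq2 1.42.0 as an alternative. Levels were computed in Python 3.11.15 with NumPy 2.4.6, pandas 2.3.3 and SciPy 1.17.1, and plotted with matplotlib 3.10.9. SDs and permutation tests are over embryos. Nuclei were thinned to 2000 UMIs, leaving out 387 shallower ones. Floors of 3 counts cover counting error only. The chi-square per gene between littermates was at least 4.03, above the value of 1 that draws from a single library would give. It was 57.1 for S2-1 and S2-2, 82.8 for S2-1 and S2-4 and 45.0 for S2-2 and S2-4. In the other litters it was at most 11.3. Coordinates are those of GENCODE M21 (GRCm38), where 23125 of 23513 symbols were found. Of 96 listed genes, 92 were in the tables. Named genes were the 10 members, the pathway genes called or highest in their cluster and markers beside a call. The 3 genes most like a member were named for members that reached 10 CPM. The members, lists and tests were chosen with earlier results of these data known. Scripts were tested on simulated data. Promoter windows of Aldh1a3 and Crabp2 were not used here. The level of 1 other pathway gene is not reported here.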

Additional observations from a re-analysis of the deposited data

Results flagged for a closer look

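Extreme embryos were sought in 55 groups of 4 to 6 values, of which chance would pick out about 1 in 20, and 5 were found. In saline embryos, S2-2 had 26.9 CPM of Rara in Cluster 5 where the next had 17.9, and 5.47 CPM of Aldh1a2 in Cluster 23, from 1 UMI, where the next had 1.24. S1-1 had the lowest Rxrb over all nuclei, 9.08 CPM, with the next at 10.1. In EtOH embryos, E2-1 had 203 CPM of Rarb over all nuclei, with the next at 140, and 13.1 CPM of Rxrg, with the next at 10.5, and it was also the embryo with the highest share of Clusters 11, 13 and 18.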

How the results depend on the processing

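In clusters, the 1 call among the members became 2 with DESeq2 (which called 2.61% of all pairs) and 2 with counts summed per dam (Rarb in Clusters 1 and 14 in both), 4 of 244 pairs with every gene with at least 1 count (lower for Rarb in Clusters 1 and 12 and Aldh1a3 in Cluster 11, and higher, at 2.63, for Rarb in Cluster 25, where the 2 EtOH embryos had 7.12 and 83.1 CPM), 0 of 16 with nuclei thinned to 2000 UMIs, where Rarb in Cluster 1 was not tested, and 0 to 4 with 1 embryo left out. With batch as replicate block Rarb in Cluster 1 had -1.15 (adjusted p = 0.0316) and Rxrg over all nuclei 0.48 (adjusted p = 0.0391), and the block changed no other call. Over all nuclei the 1 call became 0 per dam and 0 thinned and 0 to 2 with 1 embryo left out, and with every gene it was Aldh1a2 (-2.21, adjusted p = 0.0312) in place of Rxrg. Of all genes, 1.71% were called per dam and 7.23% thinned, and 2.99% were called as lower with every gene. In major types the 0 calls became 0 to 2 with 1 embryo left out (Rxrg in interneurons without S2-2, Rarb in radial glial cells and Rara in projection neurons without S2-4). The shares of all genes called with 1 embryo left out are not reported here, so calls gained that way have no share beside them. The interaction gave 4 of 235 with every gene (Rarb in Clusters 8, 11, 15 and 16), where 0.338% of all pairs were called. The Rarg level in Cluster 25 was 24.3 CPM thinned against 12.9. Signs turned for Aldh1a3 in Cluster 10 (0.11 thinned, -0.56 to 0.14 without 1 embryo), Rara in Cluster 5 (-0.0023 with every gene, -0.011 to 0.14), Rarb in Cluster 11 (-0.017 per dam, -0.0059 to 0.12), Rxrb in Cluster 12 (-0.0075 to 0.34) and Cyp26b1 in Cluster 13 (-0.45 to 0.091). The cause was not tested. Low counts limit Aldh1a2, Crabp2 and the small clusters.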
